A study of Homo sapiens with 6 samples.

Results

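The CC chemokine genes examined here are CCL2, CCL3, CCL4, CCL5, CCL17, CCL19, CCL20 and CCL22. They were chosen by symbol and not by a cut on their values, though earlier results of these data were known. All 8 have a row on a primary chromosome among the 63677 genes of the deposited table. RNA-Seq was performed on RPMI8226 cells, an established human multiple myeloma (MM) line with the label WT for its genotype, at 6 hr of treatment. One group of 3 libraries came from cells given 100 nM GST-PTR1, a fusion of glutathione-S-transferase (GST) to the PTR1 domain of HAPLN1, a protein of the extracellular matrix, and the other 3 libraries came from cells given 100 nM GST alone. Both proteins were purified from Escherichia coli. The paper reports a Limulus Amebocyte Lysate assay for bacterial lipopolysaccharide. It puts the contamination orders of magnitude under the amount that a gel shift assay of NF-κB could detect in these cells. The cells were cultured without other cell types, and 1 cell line and 1 time point were sequenced, which limits what the groups can stand for. The comparison asks which genes differ in transcript level between the treatments, and it measures RNA and not secreted protein.

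CC chemokines are small secreted proteins named for a pair of adjacent cysteines near their amino terminus. They bind G protein-coupled receptors of the CCR family on leukocytes and direct the migration of these cells. Many of them are known targets of the transcription factor NF-κB, and in MM bone marrow CCL3 is known for its effects on osteoclasts and osteoblasts, the cells that resorb and build bone.

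The GST libraries held between 15202503 and 23453473 counts on genes and the GST-PTR1 libraries between 22874133 and 44688737. Libraries are named here by the numbers in the column names of the table, which are 3, 4 and 5 for GST and 2, 4 and 5 for GST-PTR1. Levels are given as counts per 1000000 counts of the library (CPM), or as CPM per kilobase of exon (RPKM) where genes are compared with each other. Fold changes are log2 values of GST-PTR1 over GST from edgeR's quasi-likelihood test across 16926 genes, and adjusted p-values are Benjamini-Hochberg values over all of these genes. The standard errors (SE) given with them were derived from that test. Each is the absolute log2 fold change divided by the square root of the test's F value, an approximation for genes with few GST counts. Of the plasma cell markers SDC1, CD38, IRF4, PRDM1, XBP1, TNFRSF17 and SLAMF7, all 7 passed the filter on low counts, and their summed level was 1282 to 1533 CPM with GST and 1120 to 1249 CPM with GST-PTR1. SDC1, which encodes the plasma cell surface proteoglycan syndecan-1, was present in both groups, had 402 ± 69.7 CPM with GST and 172 ± 23.1 CPM with GST-PTR1 (SD, n = 3 each), and fell by 1.03 on the log2 scale (adjusted p = 0.000272). Of the 7 markers 3 were called lower (SDC1, TNFRSF17 at a log2 fold change of -1.41 and XBP1 at -0.47), 3 were called higher (SLAMF7 at 1.52, PRDM1 at 1.35 and IRF4 at 0.65) and CD38 was not called.

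Transcripts of 6 of the 8 CC chemokine genes rose with GST-PTR1 and none fell. The largest change was that of CCL4, followed by CCL3 and CCL19, whose order depended on the fit, then by CCL2 and CCL22, and CCL5 changed least. DESeq2 gave log2 fold changes of 5.29 for CCL3 and 5.34 for CCL19, and CCL19 passed CCL4 (6.57) when GST library 5, its only GST library with counts, was left out (8.67). CCL20 stayed too low to be tested and no read of CCL17 was counted. The other 6 genes passed the filter on low counts, CCL2, CCL3 and CCL5 in the GST libraries alone, and CCL4, CCL19 and CCL22 only with the GST-PTR1 libraries counted in. Of these last 3 genes, CCL22 reached the filter's level in 2 of the GST libraries and CCL4 in 1, while CCL19 reached it in none and could be tested only because it was higher with GST-PTR1. Each of the 6 had an adjusted p under 0.05, a change of at least 2-fold and no overlap between the groups. Among all genes tested 9.15% were called higher and 11.4% lower, and 3.68% were called higher by at least 2-fold. On totals scaled by TMM factors, 19.2% of all genes tested had all GST-PTR1 libraries above all GST libraries. The log2 fold change had a median of 4.39 over the 6 genes and of 0.01 over all genes tested. The median of the 6 leaves out CCL17 and CCL20. It takes in CCL4, CCL19 and CCL22, which passed the filter only with the GST-PTR1 libraries, so it describes these 6 genes alone. In RNA of a whole culture, more cells with a transcript and more transcript per cell cannot be told apart. The plot of CPM by library shows the 8 genes.

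**Figure D1:**
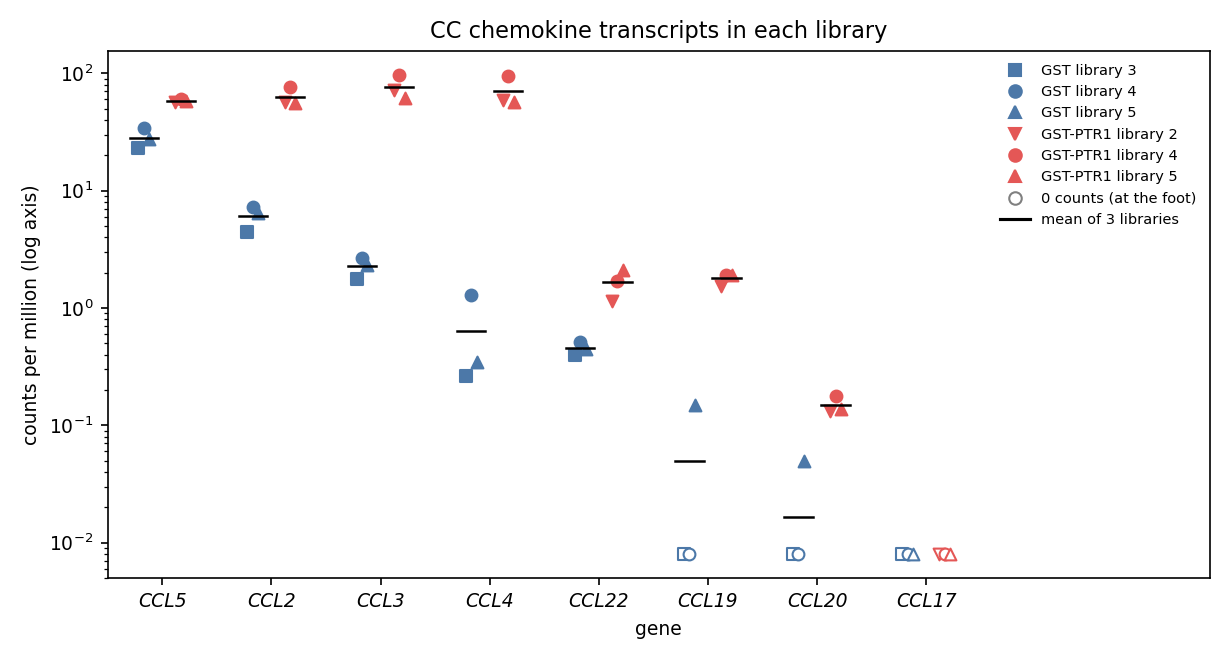
CPM of each CC chemokine gene (x axis) in the 3 GST and 3 GST-PTR1 libraries on a log axis. Each point is 1 library, marked by its number, black bars are means, and open symbols at the foot are libraries with 0 counts. The GST-PTR1 libraries lie above the GST libraries for every gene but CCL17, with CCL2, CCL3, CCL4 and CCL5 all between 56.3 and 97.2 CPM with GST-PTR1.

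CCL3 and CCL4 encode MIP-1α and MIP-1β, which attract monocytes and T cells, and CCL3 binds CCR1. Both lie on chromosome 17 with near-identical copies close by. A read that lies within a stretch shared by a member and a copy can fit both equally well. The authors' counting left such reads out. To show how alike they are, the coding sequences of CCL3 and of 1 copy are given from the GENCODE release 29 transcripts, 5′ to 3′, with capitals at the bases that differ.
CCL3: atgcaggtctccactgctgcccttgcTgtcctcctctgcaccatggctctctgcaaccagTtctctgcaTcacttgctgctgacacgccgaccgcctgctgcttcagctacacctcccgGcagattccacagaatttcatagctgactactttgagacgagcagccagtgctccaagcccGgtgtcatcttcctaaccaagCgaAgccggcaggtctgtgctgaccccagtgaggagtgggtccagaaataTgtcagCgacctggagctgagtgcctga
CCL3L3: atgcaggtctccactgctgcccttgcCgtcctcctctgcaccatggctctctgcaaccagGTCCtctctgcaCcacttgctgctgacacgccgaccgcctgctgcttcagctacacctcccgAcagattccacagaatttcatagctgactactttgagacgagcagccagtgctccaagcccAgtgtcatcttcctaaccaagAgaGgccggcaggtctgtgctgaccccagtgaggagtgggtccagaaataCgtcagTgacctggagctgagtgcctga
CCL3 and CCL3L3 were identical at 270 of 282 aligned positions (95.7%), with 3 gap positions and a longest identical stretch of 60 bases. Sequence outside the coding part was not compared, and no copy of CCL4 was.

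CCL3 (ENSG00000006075, minus strand, GRCh37 chr17:34415602-34417515) had 27, 62 and 47 counts in GST libraries 3, 4 and 5, or 1.78, 2.64 and 2.34 CPM. In GST-PTR1 libraries 2, 4 and 5 it had 1663, 4345 and 1761 counts, or 72.7, 97.2 and 61.1 CPM. The groups lay far apart, and library 4 was the highest in each of them. The log2 fold change was 5.27 (SE 0.24, adjusted p = 1.04e-07), the change with rank 51 among all increases.

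CCL4 (ENSG00000129277, plus strand, GRCh37 chr17:34430983-34433014) starts 13.5 kb beyond the end of CCL3. It had 4, 30 and 7 counts in GST libraries 3, 4 and 5, or 0.263, 1.28 and 0.349 CPM. With GST-PTR1, libraries 2, 4 and 5 gave 1364, 4223 and 1641 counts, or 59.6, 94.5 and 56.9 CPM. GST library 4 held most of the CCL4 counts of its group, yet every GST-PTR1 library was far above it. The log2 fold change was 6.88 (SE 0.41, adjusted p = 6.98e-07), rank 23 among all increases. Without GST library 4 it was 8.01 (SE 0.44, adjusted p = 8.98e-06).

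The rows of the copies moved the same way. The table has 2 further rows whose exon structure is that of a CCL3L copy. ENSG00000256515 (minus strand, GRCh37 chr17:34522268-34524157) had 0, 3 and 3 counts in GST libraries 3, 4 and 5 and 61, 199 and 86 counts in GST-PTR1 libraries 2, 4 and 5, with a log2 fold change of 5.21 (SE 0.49, adjusted p = 2.73e-05). ENSG00000205021 (minus strand, GRCh37 chr17:34623842-34625731) had 1 count over the GST libraries and 22, 80 and 9 counts in the GST-PTR1 libraries, and did not pass the filter.

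About 14 kb beyond each of these copies lies a plus-strand row, at the place where CCL4 lies relative to CCL3. These rows are given by identifier because no name could be matched to them. ENSG00000205020 had 8 counts over the GST libraries and 1169 over the GST-PTR1 libraries (log2 fold change 6.54, SE 0.44, adjusted p = 1.86e-06), and ENSG00000197262 had 2 and 514 (7.21, SE 0.54, adjusted p = 3.93e-06). The fitted fold changes of these low rows depend on the small count that edgeR adds. These rows and ENSG00000256515 were below the filter's level in every GST library. They could be tested only because they were higher with GST-PTR1.

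With the copies counted in, the rows beside CCL3 held 4.90% of the joint counts with GST and 5.56% with GST-PTR1, and those beside CCL4 held 19.6% and 18.9%. Summing each gene with its copies before the fit gave log2 fold changes of 5.28 for CCL3 and 6.87 for CCL4. All levels of CCL3, CCL4 and their copies remain uncertain, since reads that map to several places were not counted.

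**Figure D2:**
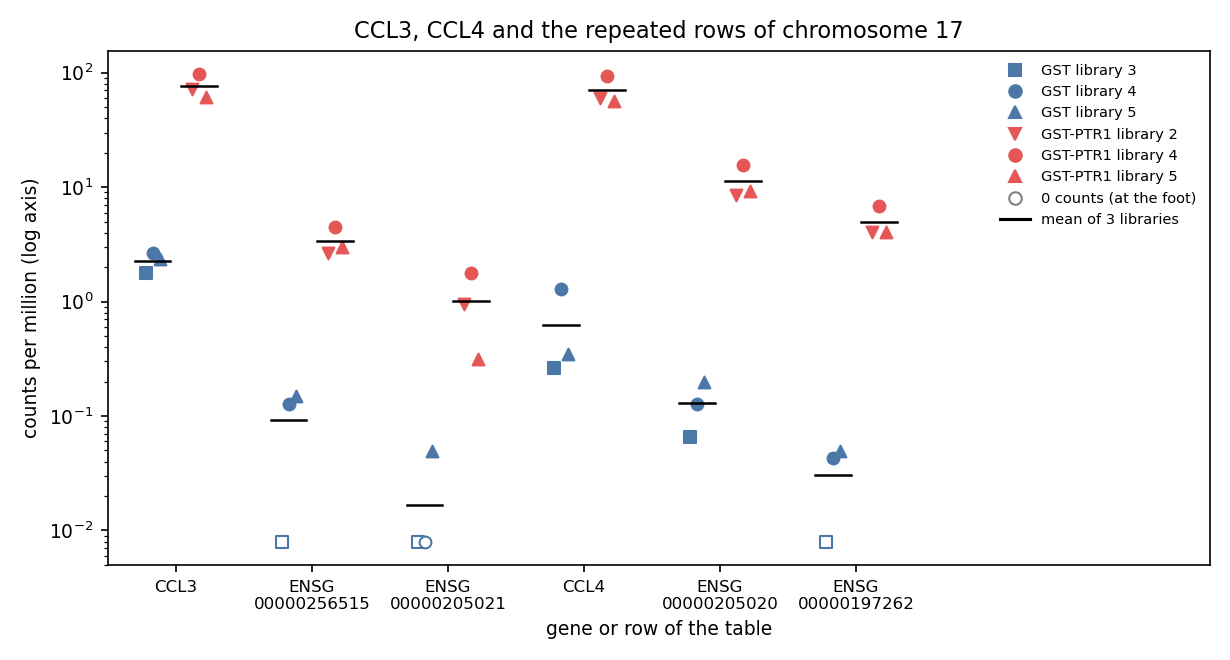
CPM (log axis) of CCL3, of the rows with a CCL3L structure, of CCL4 and of the plus-strand row beyond each copy, by library. Points are libraries, black bars are means of 3 and open symbols at the foot are 0 counts. In each of the 6 rows the GST-PTR1 libraries lie above the GST libraries.

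CCL2 encodes MCP-1, the ligand of CCR2 that recruits monocytes. CCL2 (ENSG00000108691, plus strand, GRCh37 chr17:32582304-32584222) had 67, 169 and 130 counts in GST libraries 3, 4 and 5, or 4.41, 7.21 and 6.47 CPM. With GST-PTR1, libraries 2, 4 and 5 gave 1313, 3397 and 1624 counts, or 57.4, 76.0 and 56.3 CPM. The lowest GST-PTR1 library was 7.82 times the highest GST library, and library 4 was again the highest of each group. The log2 fold change was 3.58 (SE 0.21, adjusted p = 7.18e-07), rank 118 among all increases.

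CCL5 encodes RANTES, which binds CCR1 and CCR3 and attracts T cells, eosinophils and monocytes. It was the CC chemokine with the highest transcript level before any rise. CCL5 (ENSG00000161570, minus strand, GRCh37 chr17:34198495-34207797) had 353, 797 and 554 counts in GST libraries 3, 4 and 5, or 23.2, 34.0 and 27.6 CPM. With GST-PTR1, libraries 2, 4 and 5 gave 1310, 2682 and 1668 counts, or 57.3, 60.0 and 57.8 CPM. The GST-PTR1 libraries were close to each other and all above the GST libraries. The log2 fold change was 1.24 (SE 0.15, adjusted p = 0.000162), rank 507 among all increases. Tested in edgeR against 2-fold rather than no change, CCL5 did not pass (adjusted p = 0.476), while the other 5 tested members did, CCL22 with the highest adjusted p of these (0.0465).

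CCL19 is a ligand of CCR7 that guides T cells and dendritic cells in lymphoid tissue. CCL19 (ENSG00000172724, minus strand, GRCh37 chr9:34689564-34691274) had 0, 0 and 3 counts in GST libraries 3, 4 and 5, and 35, 86 and 55 counts in GST-PTR1 libraries 2, 4 and 5, or 1.53, 1.92 and 1.91 CPM. All of its GST counts came from library 5, and the GST-PTR1 libraries lay well above them. The ratio of summed counts, scaled by library totals, was 35.7 with a 95% exact binomial interval of 12.03 to 175, which covers counting error only and not the spread between libraries. The fitted log2 fold change was 5.20 (SE 0.58, adjusted p = 9.76e-05), and DESeq2 gave a larger SE of 0.90. Without GST library 5 it was 8.67 (adjusted p = 0.000364), a value against 0 counts that is set by the count edgeR adds and is no bound.

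CCL22 and CCL17 encode MDC and TARC, ligands of CCR4 that attract regulatory and helper T cells, and they lie on chromosome 16 on either side of CX3CL1. CCL22 (ENSG00000102962, plus strand, GRCh37 chr16:57392684-57400102) had 6, 12 and 9 counts in GST libraries 3, 4 and 5, or 0.395, 0.512 and 0.448 CPM. With GST-PTR1, libraries 2, 4 and 5 gave 26, 76 and 61 counts, or 1.14, 1.70 and 2.12 CPM. The groups did not overlap, and the GST-PTR1 libraries spread more widely than the GST libraries. The log2 fold change was 2.06 (SE 0.33, adjusted p = 0.0014), rank 255 among all increases.

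CCL17 (ENSG00000102970, plus strand, GRCh37 chr16:57438679-57449974) had 0 counts in all 6 libraries. At this depth 0 counts allow a level of up to 0.0671 CPM in the deepest library and 0.197 CPM in the shallowest, taking 3 counts as the limit. CX3CL1, the membrane-bound chemokine gene between them, had 0.0308 ± 0.0269 CPM with GST and 0.406 ± 0.130 CPM with GST-PTR1, 40 counts in all, and was not tested.

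CCL20 encodes MIP-3α, the ligand of CCR6 that attracts dendritic cells and Th17 cells. CCL20 (ENSG00000115009, plus strand, GRCh37 chr2:228678558-228682272) had 0, 0 and 1 counts in GST libraries 3, 4 and 5 and 3, 8 and 4 counts in GST-PTR1 libraries 2, 4 and 5. The groups did not overlap, but the counts were too low for the filter. The ratio of summed counts, scaled by library totals, was 9.14 with a 95% exact binomial interval of 1.41 to 385, which covers counting error only and not the spread between libraries. In a fit of every gene with a count in any library its log2 fold change was 3.06 (SE 1.16, adjusted p = 0.0524).

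Levels of different genes were compared per length of exon, with ranges over the 3 libraries of a treatment. With GST, CCL5 was the highest at 18.7 ± 3.58 RPKM (SD, n = 3), ahead of CCL2 at 5.30 ± 1.28 RPKM and CCL3 at 1.51 ± 0.295 RPKM, each apart from the next. CCL4 followed at 0.310 ± 0.277 RPKM and CCL22 at 0.154 ± 0.020 RPKM, and the ranges of CCL4, CCL22, CCL19 and CCL20 overlapped from each to the next. With GST-PTR1 the order changed. CCL2 at 55.6 ± 9.74 RPKM and CCL3 at 51.5 ± 12.4 RPKM were the highest and overlapped. CCL5 at 38.6 ± 0.958 RPKM lay below the range of CCL3 and overlapped CCL4 at 34.6 ± 10.3 RPKM. On TMM-scaled totals the ranges of CCL5, from 38.9 to 45.0 RPKM, and CCL3, from 43.1 to 73.7 RPKM, overlapped. CCL19 at 2.30 ± 0.287 RPKM, CCL22 at 0.564 ± 0.168 RPKM and CCL20 at 0.112 ± 0.0193 RPKM followed, each apart from the next.

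The 8 genes together took 0.00301%, 0.00456% and 0.00374% of the counts in GST libraries 3, 4 and 5, and 0.0250%, 0.0332% and 0.0236% in GST-PTR1 libraries 2, 4 and 5. The groups did not overlap, and library 4 was the highest in both. The mean rose from 0.00377 ± 0.000778% to 0.0273 ± 0.00515% (SD, n = 3 each, two-sided exact permutation p = 0.1, the smallest that 3 libraries against 3 can give). Within these counts CCL5 went from 75.2 ± 1.83% to 21.8 ± 3.33%, while CCL3 went from 5.99 ± 0.242% to 28.1 ± 1.95%, CCL4 from 1.54 ± 1.10% to 25.5 ± 2.61% and CCL2 from 15.9 ± 1.33% to 23.2 ± 0.509%. The plot of the make-up of the counts shows 1 dominant gene in each GST library and 4 genes of like share in each GST-PTR1 library. These shares are not scaled by exon length. Per length, the GST-PTR1 means were 55.6 RPKM for CCL2, 51.5 for CCL3, 38.6 for CCL5 and 34.6 for CCL4. Library 4 was also the deepest of each group, with 23453473 and 44688737 counts. With all libraries thinned to the smallest total, the log2 fold changes were 3.51 for CCL2, 5.22 for CCL3, 7.01 for CCL4, 1.23 for CCL5, 5.00 for CCL19 and 1.84 for CCL22.

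**Figure D3:**
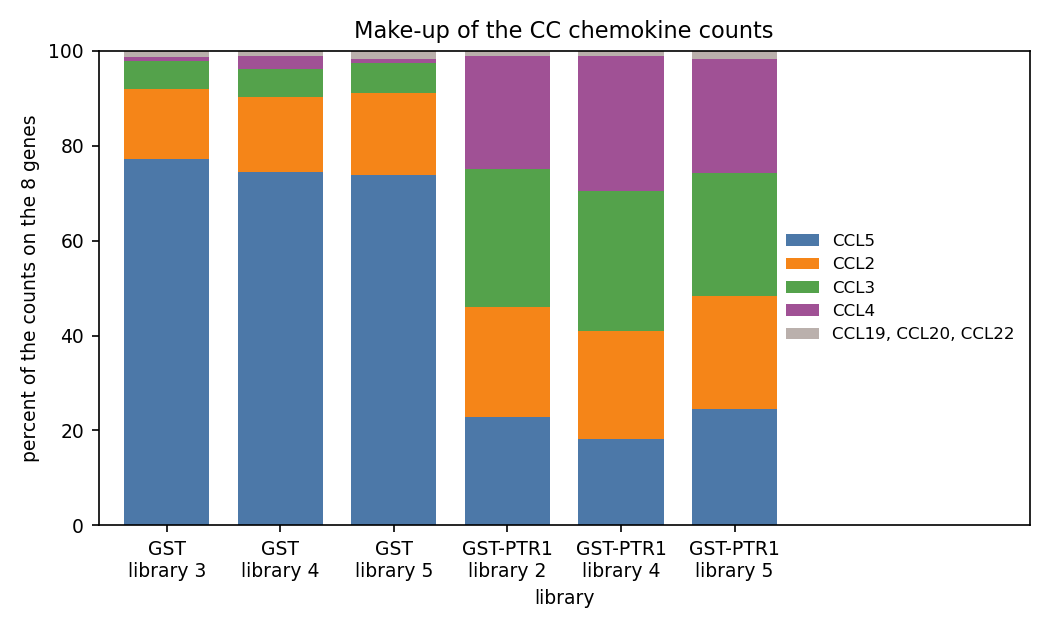
Percent of the counts on the 8 CC chemokine genes (y axis) held by each gene in each of the 6 libraries (1 bar each), not scaled by exon length. CCL5 is the main part of all 3 GST bars, with a mean of 75.2%, and in the GST-PTR1 bars CCL5, CCL2, CCL3 and CCL4 have means of 21.8%, 23.2%, 28.1% and 25.5%.

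Windows around RefSeq gene starts (GRCh38.p14, 250 bases before to 50 after a start) were present for 4 of the 8 members, CCL3, CCL19, CCL20 and CCL22. They were searched on both strands for a κB-like motif (GGG and CC with any 5 bases between), an AP-1 motif (TGA and TCA with any 1 base between), a TATA box (TATAAA) and an interferon-response motif (GAAA and GAAA with any 2 bases between). The 250 bases before the most upstream start are given for CCL3 and CCL22, which rose and whose windows at that start differ in κB-like matches, and for CCL20, which stayed near the limit of detection. They are written 5′ to 3′ with matches in capitals.
CCL3 (minus strand, chr17:36090144-36090393): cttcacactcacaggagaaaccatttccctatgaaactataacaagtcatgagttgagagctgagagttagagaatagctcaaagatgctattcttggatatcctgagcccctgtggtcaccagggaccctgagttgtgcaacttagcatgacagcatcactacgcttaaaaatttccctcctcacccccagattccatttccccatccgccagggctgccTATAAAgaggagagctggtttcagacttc
CCL22 (plus strand, chr16:57358533-57358782): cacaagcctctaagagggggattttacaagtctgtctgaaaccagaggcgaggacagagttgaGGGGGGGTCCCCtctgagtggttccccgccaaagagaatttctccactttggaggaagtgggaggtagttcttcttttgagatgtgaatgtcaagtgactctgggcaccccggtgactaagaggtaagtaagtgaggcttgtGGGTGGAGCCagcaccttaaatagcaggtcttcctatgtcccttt
CCL20 (plus strand, chr2:227813592-227813841): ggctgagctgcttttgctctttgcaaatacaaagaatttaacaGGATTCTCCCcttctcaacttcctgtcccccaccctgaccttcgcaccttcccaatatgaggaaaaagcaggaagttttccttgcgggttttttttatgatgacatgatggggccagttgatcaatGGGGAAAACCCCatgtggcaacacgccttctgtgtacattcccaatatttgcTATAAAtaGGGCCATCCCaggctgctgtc
With the base before the start counted as -1, the CCL3 window had a TATA box from -29 and no κB-like match. The second of its 3 windows had 1 κB-like match from -112. The CCL22 window had overlapping κB-like matches from -187, -186 and -185 and another from -45. The CCL20 window had κB-like matches from -207, -81, -80, -79 and -21 and a TATA box from -29. The CCL19 window held none of the 4 motifs. Among all 35116 windows in the table, 58.7% held a κB-like match, 7.71% an AP-1 match, 11.5% a TATA box and 3.57% an interferon-response match, so the κB-like letters are common in windows of this length. A match is a run of letters, and binding was not measured.

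Of 20 other CC ligand genes, 14 had a named row, 12 of these had at most 3 counts in every library, and 2 were tested. CCL8, which encodes the monocyte attractant MCP-2 and lies near CCL2, had 2, 3 and 4 counts in GST libraries 3, 4 and 5 and 24, 77 and 25 in GST-PTR1 libraries 2, 4 and 5. It was called higher (log2 fold change 3.19, SE 0.47, adjusted p = 0.000775). CCL8 reached the filter's level in none of the GST libraries and could be tested only because it was higher with GST-PTR1. CCL1, a ligand of CCR8, had 26, 20 and 20 counts with GST and 37, 66 and 58 with GST-PTR1 and was not called (0.76, SE 0.28, adjusted p = 0.0812). Its groups overlapped in CPM but not on totals scaled by TMM factors, and without GST library 3 its adjusted p was 0.0227.

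Of 14 CC receptor genes 6 were tested, and 3 were called higher and none lower. Over all genes tested the shares were 9.15% and 11.4%. CCR7, the receptor of CCL19, had 4, 8 and 7 counts in GST libraries 3, 4 and 5 and 130, 239 and 220 in GST-PTR1 libraries 2, 4 and 5, a log2 fold change of 4.44 (SE 0.27, adjusted p = 7.78e-07). No GST library reached the filter's level for CCR7, so it could be tested only because it was higher with GST-PTR1. CCR2, the receptor of CCL2, rose from 7.78 ± 0.813 to 12.7 ± 1.45 CPM (0.89, SE 0.14, adjusted p = 0.00127). CCR1, which binds CCL3 and CCL5, rose from 294 ± 2.17 to 371 ± 16.6 CPM (0.53, SE 0.10, adjusted p = 0.00284). These receptors differed widely in the size of their change, and CCR1 was abundant in both treatments.

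No other tested receptor was called. CCR3, which binds CCL5, had a log2 fold change of 0.40 (SE 0.13, adjusted p = 0.0532) and CCR10 of -0.29 (SE 0.30, adjusted p = 0.509). CCR3 passed with DESeq2's size factors (adjusted p = 0.0487) and in DESeq2's test (adjusted p = 0.039), and over all its alternatives the adjusted p ran from 0.03 to 1. CCR4, the receptor of CCL17 and CCL22, had 8 counts and CCR6, the receptor of CCL20, had 1 count over all 6 libraries. Neither was tested.

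All 12 genes of a list of NF-κB subunits, inhibitors and feedback genes were called higher, 9 of them by at least 2-fold. The shares of all genes tested were 9.15% and 3.68%, and the list was chosen with earlier results of these data known. The smallest p-values were those of BIRC3, which encodes the ubiquitin ligase cIAP2 (log2 fold change 3.92, SE 0.12), NFKBIA, which encodes the inhibitor IκBα (3.02, SE 0.12), TNFAIP3, which encodes the feedback inhibitor A20 (2.73, SE 0.12), and RELB, which encodes an NF-κB subunit (2.28, SE 0.11). The increases of CCL4, CCL3 and CCL19 were larger on the log2 scale than those of these 4 genes. That of CCL2 (3.58) lay between BIRC3 and NFKBIA, and those of CCL22 (2.06) and CCL5 (1.24) were smaller than all 4. The plot of fold changes sets ligands, receptors and NF-κB genes side by side.

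**Figure D4:**
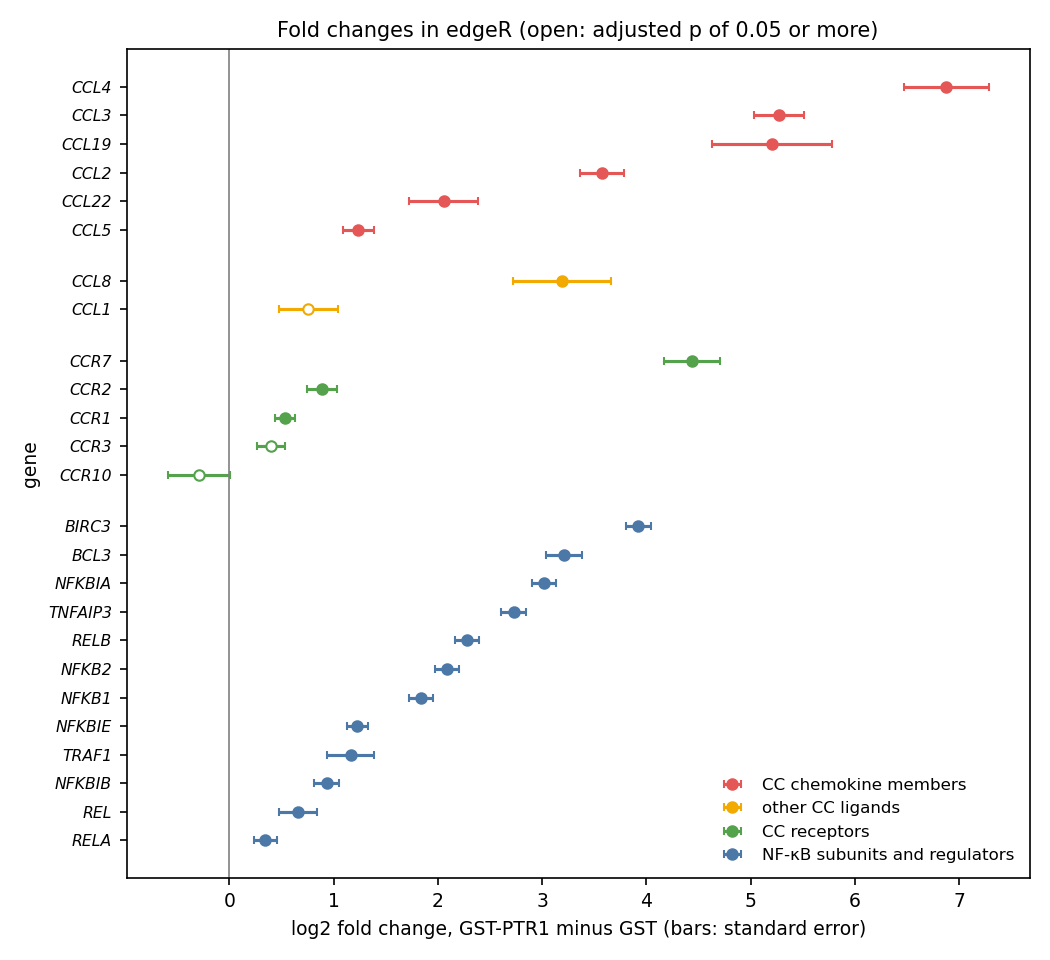
Log2 fold changes of GST-PTR1 over GST (x axis) with standard errors for the tested CC chemokine members and other CC ligands, 5 CC receptors and the NF-κB list genes (y axis). Filled points passed at an adjusted p under 0.05 (edgeR). The members range from 1.24 for CCL5 to 6.88 for CCL4, and among the receptors CCR7 stands at 4.44 and CCR10 at -0.29.

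The named protein-coding genes of other families that lie nearest to the members gave 13 genes. Of these, 4 were tested and 7 had at most 3 counts in every library. Rows that could not be given a name were not searched, so a nearer gene can have been passed over. CIAPIN1, an anti-apoptotic gene beside CCL17, was called higher (log2 fold change 0.37, SE 0.12, adjusted p = 0.0448), and no other neighbour was called. TMEM132E, 324 kb beyond CCL2, had a log2 fold change of 0.11 (adjusted p = 0.54). DHRS11, 531 kb beyond CCL3 and 515 kb beyond CCL4, had one of -0.11 (adjusted p = 0.624). IL11RA, 27.7 kb from CCL19, had one of 0.07 (adjusted p = 0.901). The antisense rows over CCL2, CCL3 and CCL5 had 0, 1 and 1 counts over all libraries, and no row on the same strand overlapped a member.

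The genes whose pattern over the 6 libraries was most like that of each tested member were found by the root mean square (RMS) difference of log2 CPM (prior count of 2) centred on the gene's own mean, among 13359 or 13360 genes with a mean count of at least 50. CCL5 had the closest match, with OASL and HERC5, both interferon-stimulated genes, at an RMS difference of 0.0540 and 0.0684. CCL2 was nearest to the pseudogene GBP1P1 at 0.149 and LTB, which encodes lymphotoxin beta, at 0.183. CCL22 was nearest to the MHC class II gene HLA-DPB1 at 0.138 and the transcription factor gene LEF1 at 0.158. The nearest genes of CCL3 were the cytokine gene IL27 at 0.224 and ENSG00000197262, described above, at 0.236, although their fitted log2 fold changes, 7.39 and 7.21, were larger than that of CCL3. The nearest genes of CCL19 were TNFSF18, which encodes GITR ligand, at 0.267 and VGLL2 at 0.300. CCL4 had the loosest matches, IL2RA, the interleukin-2 receptor alpha chain, at 0.501 and the chemokine receptor gene CXCR5 at 0.604. The prior count shrinks the changes of genes with few GST counts in this measure, and under Pearson's correlation the nearest genes were mostly others.

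Of the 25 markers of other cell types, 15 had at most 3 counts in every library and 7 of these had none. The summed level of 5 monocyte or macrophage markers was 0.747 to 1.64 CPM with GST and 0.555 to 0.831 CPM with GST-PTR1, and that of 4 stromal cell markers was 0.263 to 0.554 and 0.336 to 0.393 CPM. The 3 B cell markers summed to 1.88 to 2.43 CPM with GST and 1.97 to 2.29 CPM with GST-PTR1. The 5 T cell markers summed to 5.33 to 5.63 and 2.64 to 3.37 CPM, nearly all of it CD8A, while CD2 was at 0 and CD3D, CD3E and CD3G had at most 2 counts in any library. The 4 NK cell markers summed to 61.6 to 90.3 and 34.3 to 50.4 CPM, nearly all of it NCAM1, with NCR1 at 0. CD8A (log2 fold change -0.70, adjusted p = 0.0132) and NCAM1 (-0.51, adjusted p = 0.0424) fell. The 4 dendritic cell markers summed to 32.1 to 40.9 CPM with GST and to 61.3 to 84.0 CPM with GST-PTR1, with CD1C and FCER1A at 0. LAMP3, with a log2 fold change of 1.16 (adjusted p = 0.000137), rose and was the 1 marker of these 4 above 3 counts in any library. The part of LAMP3-expressing cells in the chemokine increases was not tested.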

How the data were processed

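The values deposited are raw counts for each gene, produced by the authors with featureCounts 1.5.0-p1 on GRCh37 with Ensembl release 75 gene models. Counting used strand, and multi-mapping reads were dropped. The table was not normalized, and the aligner settings are not given in the sources used here. Exon lengths are a deposited column and served for RPKM. CCL2, CCL17, CCL19, CCL20 and CCL22 were found by identifier. CCL3, CCL4 and CCL5 carry retired identifiers and were matched by exon structure to GENCODE release 29, with exon spacing within 10 bases.

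Counts were compared with edgeR 4.0.16 in R 4.3.3 (TMM factors, filterByExpr, glmQLFit, glmQLFTest, treatment as the only term), called at an adjusted p under 0.05 and, where stated, at least 2-fold. The members and lists were chosen with earlier results of these data known. Named are all members, the tested genes of the CC ligand and receptor lists, the members' receptors, the 4 NF-κB genes with the smallest p, the neighbours and the 2 most alike genes of each tested member. Libraries of a group came from 3 biological replicates and differed by more than the sampling noise (chi-square per gene of 8.31 or more). Motifs were searched and coding sequences aligned in Python 3.11.15 with Biopython 1.88. The alternatives were DESeq2 1.42.0 (size factors, Wald test), limma 3.58.1 (voom), library totals, other filters, thinning, a test against a fold change of 2, summed copies and left-out libraries. Protein sequences were not used here, and the values of 1 receptor gene and 1 pair of coding sequences are not reported here. The tests were first tested on simulated data.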

Additional observations from a re-analysis of the deposited data

How the results depend on the processing

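Over 17 other fits, 98 of 99 refitted fold changes of the 6 tested members kept their direction and their side of the threshold, and none reversed. The exception was CCL5 in the test against a fold change of 2 (log2 fold change 1.24, adjusted p = 0.476). When no TMM factors were applied, the median of all genes moved to -0.19 and the members kept their calls. With at least 10 counts required in every library, 3 members were called higher and 0 other CC ligands, because fewer genes were tested. With any gene that had 1 count kept, 2 other CC ligands and 5 CC receptors were called higher, and DESeq2's size factors or test gave 4 CC receptors, with CCR3 added. The test against a fold change of 2 called 1 CC receptor and 7 NF-κB genes. Leaving out 1 library at a time gave between 1 and 2 other CC ligands (2 without GST library 3), 3 CC receptors each time and between 10 and 12 NF-κB genes. With RPKM on TMM-scaled totals 1 of 14 levels moved by more than its SD, CCL5 with GST-PTR1, to 41.4, where its range overlapped that of CCL3. By Pearson's correlation, 1 of the 2 nearest genes stayed for CCL2 and for CCL3, and 0 for the others.

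Whether the library numbers mark a pairing cannot be told from 2 pairs. The deviations of libraries with unlike numbers had r from -0.47 to 0.37. Those of the 2 pairs with the same number had r = 0.25 for number 4 and -0.03 for number 5. On those 4 libraries with the number as a replicate block, log2 fold changes were 3.48 for CCL2, 5.19 for CCL3, 6.77 for CCL4, 1.15 for CCL5, 4.92 for CCL19 and 2.17 for CCL22, and 2 other CC ligands were called higher, as many as in the 4 libraries without the block. Depth limits CCL17, CCL20 and the GST level of CCL19.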
